A study of Mus musculus with 4 samples.

Results

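The CHD genes Chd1 to Chd9 were read in 4 mouse cerebellar tumors with Affymetrix Mouse Genome 430 2.0 arrays, where each transcript is measured by one or more probe sets of short oligonucleotides. The members were all probe sets that the platform annotation gives exactly 1 gene symbol, the symbol being Chd1 to Chd9. They came to 20 of the 29304 probe sets in the table, and to 9 of the 13320 genes with such a probe set. Every tumor carries the genotype that the titles write as Chd7-het, on a mixed CD1xC57BL/6 background, and the tumors are called 1, 2, 4 and 5 after their sample numbers, with 1 array each. Nothing else sets the tumors apart in the labels, so the comparison that the samples allow is of each tumor with the other 3. No tumor or cerebellum of another Chd7 genotype was analysed here, so the effect of the genotype was not measured and the Chd7 signal checks no label. The labels name no initiating event and no age of the mice.

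CHD proteins carry paired chromodomains, which can bind modified histone tails, and an ATPase motor of the SNF2 type, which uses ATP to slide, space or evict nucleosomes. The family falls into subfamily I (Chd1 and Chd2), subfamily II (Chd3, Chd4 and Chd5, the ATPases of the NuRD deacetylase complex) and subfamily III (Chd6 to Chd9). Chd7 is known from CHARGE syndrome, which arises in people with mutations of the human gene, and in the mouse it is needed for the normal growth of the cerebellum and its granule cell progenitors.

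Promoter windows are shown for the subfamily III genes that the RefSeq promoter table (GRCm38.p6) holds, Chd6, Chd8 and Chd9. Tumors 1 and 2 read above tumors 4 and 5 in Chd6 and Chd9 and not in Chd8 (values below). They also did so outside the subfamily, in Chd1 1457473_at, Chd2 1428691_at and Chd4 1438476_a_at. How many of all probe sets share this split was not counted, so it is not read as a trait of the family. A link between the windows and these differences was not tested. The table held 5 of the 9 genes, and Chd7 was not among those matched. Each window is the 250 bases before the start farthest upstream, 5′ to 3′ along the gene, at chr2:161109087-161109336 on the minus strand for Chd6, chr14:52257761-52258010 on the minus strand for Chd8 and chr8:90828585-90828834 on the plus strand for Chd9. Capitals mark GC boxes (GGGCGG) and CCAAT boxes (CCAAT) on either strand, none of which overlapped.
Chd6: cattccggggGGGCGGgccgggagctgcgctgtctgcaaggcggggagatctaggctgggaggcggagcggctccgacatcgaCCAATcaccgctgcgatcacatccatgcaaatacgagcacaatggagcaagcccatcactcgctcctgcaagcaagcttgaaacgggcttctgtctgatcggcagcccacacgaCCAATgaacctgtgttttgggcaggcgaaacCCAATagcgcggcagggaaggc
Chd8: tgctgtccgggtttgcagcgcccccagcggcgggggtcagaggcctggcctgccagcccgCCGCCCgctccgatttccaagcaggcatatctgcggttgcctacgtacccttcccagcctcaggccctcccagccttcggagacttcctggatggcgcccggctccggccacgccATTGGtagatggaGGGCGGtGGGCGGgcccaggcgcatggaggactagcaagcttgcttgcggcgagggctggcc
Chd9: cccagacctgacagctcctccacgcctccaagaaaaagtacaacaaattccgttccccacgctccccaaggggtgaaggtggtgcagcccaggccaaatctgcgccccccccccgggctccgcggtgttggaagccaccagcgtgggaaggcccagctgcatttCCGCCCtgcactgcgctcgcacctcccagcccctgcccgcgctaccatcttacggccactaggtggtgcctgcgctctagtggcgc
The Chd6 window held 1 GC box and 3 CCAAT boxes, that of Chd8 held 3 GC boxes and 1 CCAAT box, and that of Chd9 held 1 GC box and 0 CCAAT boxes. Of all 32851 promoter windows of this length, 32.7% held a GC box and 33.8% a CCAAT box. The GC content was 61.6%, 70% and 66% in Chd6, Chd8 and Chd9, against a median of 52.4% over all windows. E boxes (CANNTG, either strand), the sites of basic helix-loop-helix factors, numbered 0, 0 and 1 in Chd6, Chd8 and Chd9, and 66.2% of all windows held one. These matches describe letters in the windows, and no factor binding was measured.

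The deposited values are log2 signals of MAS5, the Affymetrix method that summarizes each array on its own. A signal was judged against a floor of 5.12 on the log2 scale (34.8 linear), the median over arrays of their 40th percentiles, which lay below between 59.1% and 61.3% of the probe sets of an array. Tests were run on the 13525 probe sets with a single gene symbol and a mean of at least 5.87 (58.5 linear). Levels of different probe sets depend on their oligonucleotides and were not set against each other. In whole tumors, fewer cells of a type and less RNA per cell cannot be told apart. Of the 8 markers of granule cell progenitors, among them Atoh1, Barhl1, Zic1 and Ptch1, all 8 exceeded the floor in every tumor.

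Of the 20 Chd probe sets, 14 lay above the floor in all 4 tumors and 6 below it in all 4. At least 1 probe set of Chd1, Chd2, Chd3, Chd4, Chd6, Chd7, Chd8 and Chd9 was above the floor throughout, whereas the single Chd5 probe set was below it in each tumor. The filter on the mean was passed by 10 probe sets of 7 genes, 3 of Chd4, 2 of Chd7 and 1 each of Chd1, Chd2, Chd6, Chd8 and Chd9. The lowest mean among these was 6.89, in Chd1 1457473_at, so none lay close above the filter, and the highest mean that missed it was 5.85, in Chd1 1450077_at.

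**Figure D1:**
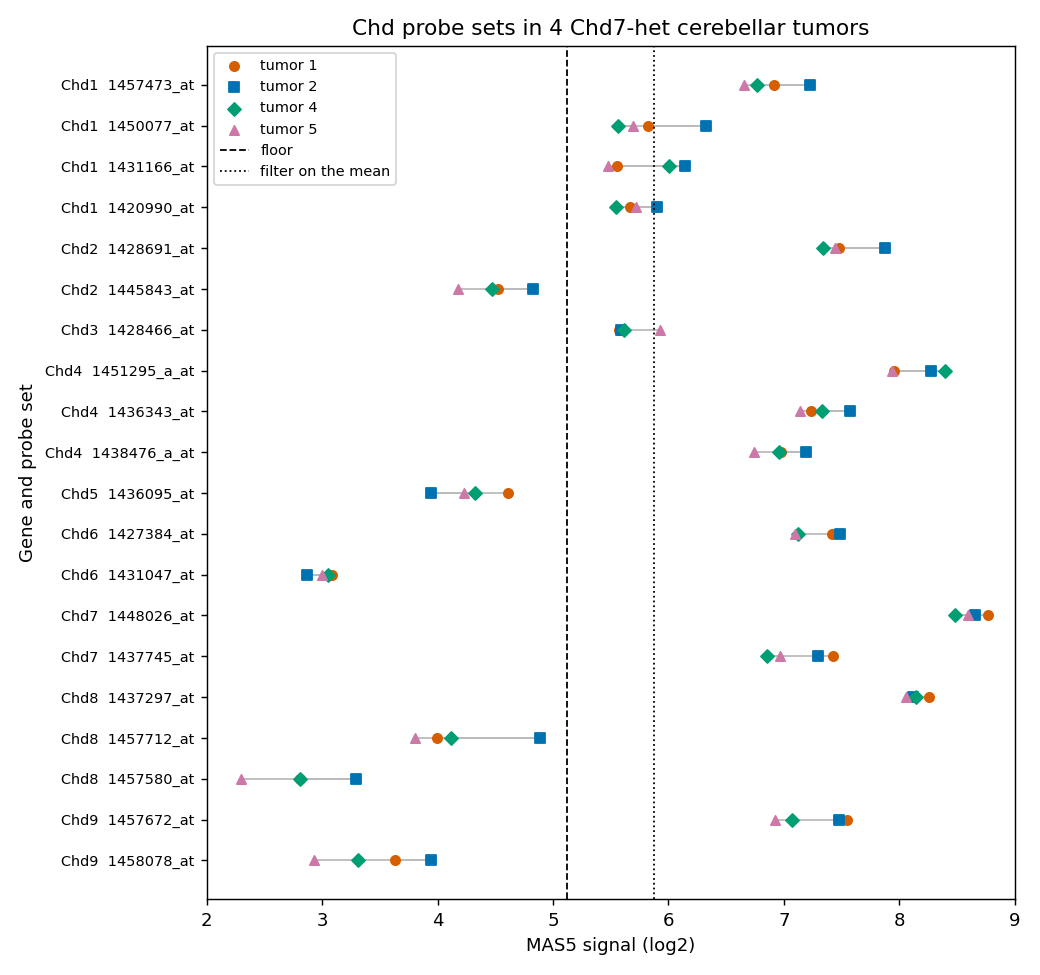
MAS5 signal on the log2 scale (horizontal axis) of the 20 Chd probe sets (rows) in tumors 1, 2, 4 and 5 (symbols), with the floor (dashed line, 5.12) and the filter on the mean (dotted line, 5.87). Both Chd7 probe sets lie right of the filter in all 4 tumors, and the Chd5 probe set lies left of the floor in all 4.

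Chd7 lay above the floor in all 4 tumors in both of its probe sets. Probe set 1448026_at read 8.77, 8.66, 8.48 and 8.60 (log2) in tumors 1, 2, 4 and 5, which is 436, 404, 357 and 388 on the linear scale (mean 8.63 ± 0.12 log2, SD, n = 4). Probe set 1437745_at read 7.42, 7.29, 6.85 and 6.96 (mean 7.13 ± 0.27, SD, n = 4). Both probe sets put the tumors in the same order, with tumor 1 highest, then 2, then 5, and tumor 4 lowest. Of all 13525 probe sets, 3.82% had that order. Of the 7573 same-gene pairs of probe sets past the filter, 19.2% had the tumors in the same order, whichever it was. The highest tumor exceeded the lowest 1.22-fold in 1448026_at and 1.49-fold in 1437745_at.

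Neither probe set passed the test in any tumor, each tumor being set against the mean of the other 3 with limma. In tumor 1, 1437745_at lay 0.39 above the mean of the others (log2, SE 0.23, limma adjusted p = 0.634), with a 95% confidence interval of -0.14 to 0.92. The same difference in 1448026_at was 0.19, with an interval of -0.18 to 0.55 (adjusted p = 0.772). In tumor 4, 1437745_at lay at -0.38 relative to the others (interval -0.99 to 0.24) and 1448026_at at -0.20 (interval -0.64 to 0.25; adjusted p = 1.00 for both). A 2-fold difference between a tumor and the rest lay outside each of these intervals, and smaller ones could not be resolved with 4 arrays.

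Tumor 1, the highest in both Chd7 probe sets, was also the tumor with the highest marker sums of several other cell types of the cerebellum. The summed linear signal of 4 Purkinje cell markers (Calb1, Pcp2, Car8 and Pcp4) was 2818 in tumor 1 and between 174 and 348 in the others, with 4 of 4 above the floor in tumor 1 and 1, 4 and 2 in tumors 2, 4 and 5. The sum of 3 markers of inhibitory neurons was 585 in tumor 1 and between 33.6 and 95.5 in the others, and that of 5 oligodendrocyte markers 3826 and between 339 and 869. Mature granule neuron markers (5 genes) summed to 4006 in tumor 1 and to between 2093 and 2292 in the others, astrocyte markers (5 genes) to 3240 and to between 2348 and 2684. Of these 5 astrocyte markers, 4 lay above the mean of the others in tumor 1. Gfap lay below it, at 6.55 (log2) in tumor 1 and 7.52, 7.69 and 7.40 in tumors 2, 4 and 5. The sum of the markers of microglia and macrophages (6 genes) ran the other way, with 1653 in tumor 1 and between 2386 and 3337 in the others. Of these 6 genes, 2 (Csf1r and Cx3cr1) lay slightly above the mean of the others in tumor 1. The part of these cell types in the Chd7 values was not tested. Endothelial markers (3 genes) summed to between 121 and 187 over the 4 tumors and those of fibroblasts and meninges (5 genes) to between 332 and 537. The 4 choroid plexus markers summed to 5102 in tumor 5, against 590, 161 and 146 in tumors 1, 2 and 4. Clic6, on this list, instead read higher in tumor 1 (9.15 log2) than in tumor 5 (8.73).

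The other genes of subfamily III were each represented by 1 probe set past the filter. Chd9, a remodeller named as a transcriptional coactivator, read 7.54, 7.48, 7.07 and 6.92 in tumors 1, 2, 4 and 5 (mean 7.25 ± 0.30, SD, n = 4). Its values in tumors 1 and 2 lay above those in tumors 4 and 5, and its range of 1.54-fold was the widest among the 10 probe sets past the filter. In tumor 5 it differed by -0.44 from the mean of the other 3 (SE 0.25, interval -1.03 to 0.14, limma adjusted p = 0.954). Outside this subfamily, tumors 1 and 2 also lay above tumors 4 and 5 in Chd1 1457473_at, Chd2 1428691_at and Chd4 1438476_a_at. Some of these gaps were narrow, with 6.97 and 6.96 in tumors 1 and 4 for the Chd4 probe set. For Chd2, tumors 1 and 5 read 7.48 and 7.44. The array medians over all probe sets past the filter split likewise, at 7.65, 7.66, 7.60 and 7.62 in tumors 1, 2, 4 and 5. The share of all probe sets with this split was not counted. Chd6 read 7.42, 7.49, 7.12 and 7.09 (mean 7.28 ± 0.20, SD, n = 4), again with tumors 1 and 2 above tumors 4 and 5. Its difference in tumor 2 was 0.28 (interval -0.23 to 0.78, adjusted p = 0.799).

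Chd8, which binds beta-catenin and whose human gene is linked to autism, had the smallest SD of the 10 probe sets past the filter. Probe set 1437297_at read 8.26, 8.12, 8.14 and 8.06 (mean 8.14 ± 0.082, SD, n = 4), a range of 1.14-fold. Of all 13525 probe sets, 11.1% had a smaller SD. Tumor 1 lay 0.15 above the others (interval -0.22 to 0.51, limma adjusted p = 0.838). The other 2 probe sets of Chd8 were below the floor in every tumor, as were the second probe sets of Chd6 and of Chd9.

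Both genes of subfamily I read highest in tumor 2. Chd2, whose human gene is linked to epilepsy, read 7.88 in tumor 2 and 7.48, 7.34 and 7.44 in tumors 1, 4 and 5. Tumor 2 thus lay above a narrow band of the other 3, by 0.46 (log2, SE 0.17, interval 0.049 to 0.87), a 1.37-fold difference. It had an unadjusted p of 0.0338 in limma but did not pass after adjustment (adjusted p = 0.784). At that unadjusted level 6.3% of all probe sets passed in tumor 2, and 1 of the 10 Chd probe sets. Chd1, which acts with elongating RNA polymerase, was alike in its brightest probe set, 1457473_at, at 7.23 in tumor 2 and 6.92, 6.76 and 6.65 in tumors 1, 4 and 5. The difference there was 0.45 (SE 0.20, interval -0.038 to 0.94, limma adjusted p = 0.789). The other 3 Chd1 probe sets, above the floor in every tumor but below the filter on the mean, also read highest in tumor 2, at 6.32, 6.14 and 5.90, where the rest of their values lay between 5.47 and 6.01.

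Subfamily II was represented past the filter by Chd4, the main NuRD ATPase of dividing cells, with 3 probe sets. Probe set 1436343_at read 7.23, 7.57, 7.33 and 7.14 in tumors 1, 2, 4 and 5, and 1438476_a_at read 6.97, 7.19, 6.96 and 6.74. In both, tumor 2 was highest and tumor 5 lowest. Probe set 1451295_a_at read 7.96, 8.28, 8.39 and 7.93, with tumor 4 highest. The limma difference of tumor 2 was 0.34 in 1436343_at (interval -0.093 to 0.78, adjusted p = 0.789) and 0.30 in 1438476_a_at (interval -0.18 to 0.78, adjusted p = 0.790). In 1451295_a_at tumor 4 differed by 0.34 (interval -0.19 to 0.87, adjusted p = 1.00).

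Chd3, the other NuRD ATPase found in many tissues, read 5.93 in tumor 5 and 5.58, 5.58 and 5.61 in tumors 1, 2 and 4, above the floor but below the filter on the mean, so it was not tested. Chd5, a family member known mainly from neurons and testis, read 4.61, 3.94, 4.32 and 4.23 in tumors 1, 2, 4 and 5, below the floor of 5.12 in each.

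**Figure D2:**
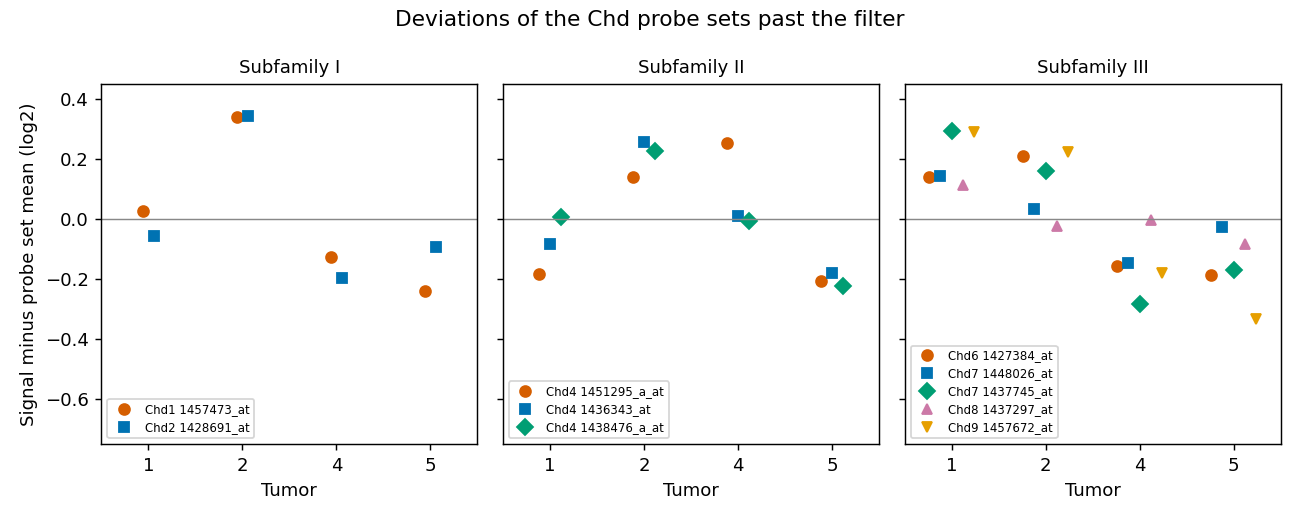
Deviation of each tumor from the mean of the probe set (log2, vertical axis) for the 10 Chd probe sets past the filter, with tumors on the horizontal axis and 1 panel per subfamily. In subfamily I tumor 2 stands 0.34 above the mean in both genes. In subfamily III both Chd7 probe sets, Chd6 and Chd9 lie above their means in tumors 1 and 2 and below them in tumors 4 and 5. The same holds for Chd1 1457473_at in subfamily I and Chd4 1438476_a_at in subfamily II. The share of all probe sets with these signs was not counted.

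The test set each tumor against the mean of the other 3 with limma over all 13525 probe sets. To pass, a probe set needed an adjusted p below 0.05 (Benjamini-Hochberg) and at least a 2-fold difference. With 1 array on one side, the spread comes from the other 3 tumors, drawn by limma toward a trend over all probe sets. It is taken to hold for the lone tumor as well. In tumor 1, 0 of the 10 Chd probe sets passed, beside 0.872% of all probe sets, and in tumors 2, 4 and 5 again 0 of 10, beside 0% of all. At an unadjusted p under 0.05 the Chd counts were 0, 1, 0 and 0 of 10 in tumors 1, 2, 4 and 5, where the shares of all probe sets were 10.9%, 6.3%, 0.621% and 3.55%. These counts turned on single arrays. In tumor 2 the count was 4 of 12 without tumor 1 (21% of all), 0 of 11 without tumor 4 (3.59%) and 0 of 12 without tumor 5 (3.28%), and in tumor 1 it was 2 of 10 without tumor 2 (22.8%). In tumor 5 it was 1 of 12 without tumor 1 (7.53%) and 1 of 11 without tumor 4 (7.01%). The adjusted calls over all probe sets also turned on them, since 88 passed in tumor 2 and 85 in tumor 5 without tumor 1, where none passed with it. Over the 40 comparisons the fold difference ran between 0.736 and 1.37. Of the 40 confidence intervals, 39 lay within 2-fold in both directions, and the exception was Chd9 in tumor 5, whose interval reached 0.491-fold. These intervals are not adjusted for the number of comparisons.

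**Figure D3:**
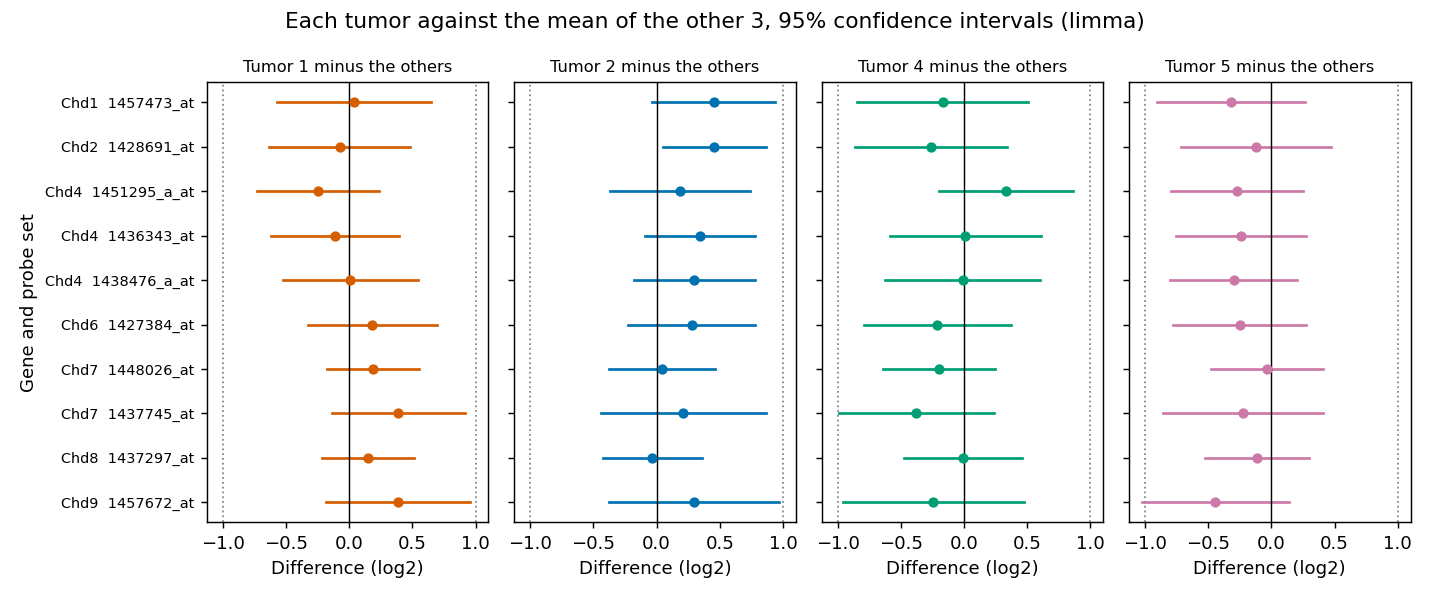
Difference between each tumor and the mean of the other 3 (log2, horizontal axis) for the 10 Chd probe sets past the filter (rows), 1 panel per tumor, with limma's 95% confidence intervals as lines and 2-fold as dotted lines. The interval of Chd2 in tumor 2, 0.049 to 0.87, is the one of 40 that does not span 0.

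The direction of the small differences was uneven between tumors. In tumor 2, 9 of the 10 Chd probe sets lay above the mean of the other 3, with a median difference of 0.29 (49.5% of all probe sets, median -0.0033), and tumor 2 was the highest of the 4 in 5 of 10 (28.3% of all) and the lowest in 0 (26.9%). In tumor 5, 0 of 10 lay above the mean of the others, with a median of -0.24 (54.5% of all, median 0.025), and tumor 5 was the lowest in 7 of 10 (23.6% of all) and the highest in 0 (29.5%). Tumor 1 lay above in 7 of 10, with a median of 0.092 (44.6% of all, median -0.031), and tumor 4 in 2 of 10, with a median of -0.18 (48.9% of all, median -0.0053). Tumor 1 was the highest in 4 of 10 (23.8% of all) and the lowest in 0 (31%), and tumor 4 the highest in 1 (18.4%) and the lowest in 3 (18.5%). The 4 comparisons share tumors, and the probe sets of a gene share their transcript, so these counts are descriptions and none of the differences passed on its own. The counts above the others were also taken with quantile normalization and with each array centred on its median, a check added after the values were seen. They stayed 9 of 10 in tumor 2 and 0 of 10 in tumor 5, and were 5 and 6 of 10 in tumor 1 and 4 of 10 in tumor 4 under both. Tumor 5 was also the tumor with the highest sum of choroid plexus markers, of which 4 of 4 lay above the floor there, against 1, 1 and 2 in tumors 1, 2 and 4. Their part in these counts was not tested.

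The spread over tumors was next described. The SD of the 10 Chd probe sets past the filter ran between 0.082 (Chd8) and 0.30 (Chd9), with a median of 0.22, where the median over all 13525 probe sets was 0.17. For Chd7, 26.6% of all probe sets had a smaller SD than 1448026_at and 77.9% a smaller one than 1437745_at. The probe sets of this gene thus shared the order of the tumors and not the size of the differences.

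Probe sets of the same gene were compared through their deviations from their own means over the 4 tumors. The Chd7 pair deviated to the same side in 4 of 4 tumors, with a root mean square difference of 0.14 (log2) and a largest gap of 0.15. Of the 3 Chd4 pairs, 1436343_at and 1438476_a_at were closest, at 0.053, although they lay on the same side in 2 of 4 tumors, since tumors 1 and 4 were near the mean in both. The pairs of 1451295_a_at with 1436343_at and with 1438476_a_at differed by 0.15 and 0.17. Over all 7573 same-gene pairs past the filter, 30.4% lay on the same side in all 4 tumors, and the median root mean square difference was 0.13 (25th to 75th percentile 0.085 to 0.21). The 4 Chd pairs lie within that range, apart from the closest, which lies below it. With probe sets down to the floor there were 10 Chd pairs, of which 2 lay on the same side in all 4 tumors (28.4% of all such pairs), 1 shared the full order of the tumors (18% of all) and 8 shared their highest tumor (51.5% of all), 6 of these being pairs of Chd1.

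**Figure D4:**
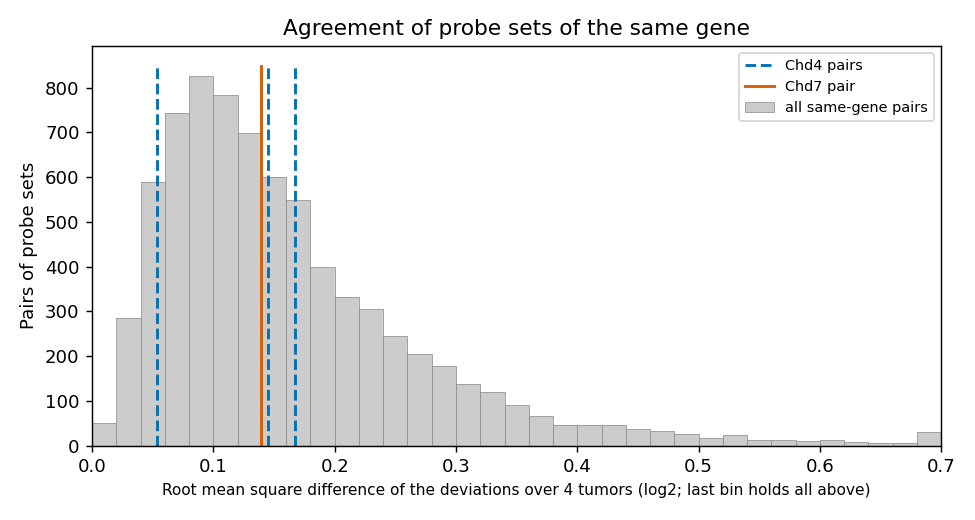
Number of same-gene pairs of probe sets (bars, vertical axis) by the root mean square difference of their deviations over the 4 tumors (log2, horizontal axis), for 7573 pairs past the filter, with the Chd7 pair (solid line, 0.14) and the 3 Chd4 pairs (dashed lines, 0.053, 0.15 and 0.17). The Chd lines fall in the body of the distribution.

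The genes whose pattern was most like that of Chd7 1448026_at were Kif3b, a kinesin motor subunit of intraflagellar transport, Camk2g, a calcium and calmodulin dependent kinase, Zscan26, a zinc finger gene, Efhd2, a calcium-binding protein, and Dlg1, a scaffold of cell polarity. Likeness was the root mean square difference of deviations over 4 tumors, with 1 probe set per gene, and it was 0.0043 for Kif3b and 0.014 for Dlg1. Kif3b read 6.29, 6.18, 6.02 and 6.13 in tumors 1, 2, 4 and 5. With so few tumors many genes lie close, and 2203 of the 8491 other genes (25.9%) were nearer to 1448026_at than the other Chd7 probe set was, at 0.14. Within the family Chd8 was nearest, at 0.084, with 533 genes nearer, and Chd4 1451295_a_at farthest, at 0.28.

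Other remodellers and the partners of the CHD proteins were read from 6 lists, with 1 probe set per gene over 8498 genes. Of the 61 list genes past the filter, 0 passed in any of the 4 tumors (1.29% of all genes in tumor 1 and 0% in tumors 2, 4 and 5), and at an unadjusted p under 0.05 the counts in limma were 3, 2, 0 and 2 in tumors 1, 2, 4 and 5, where the shares of all genes were 11.2%, 5.84%, 0.553% and 3.6%. The list count was 18 of 62 in tumor 2 without tumor 1 (21.5% of all) and 20 of 61 in tumor 1 without tumor 2 (23.5%).

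Of the NuRD subunits, which surround Chd3, Chd4 or Chd5 in the complex, 12 of 12 passed the filter. In tumor 4, 11 of 12 lay above the mean of the other 3, with a median difference of 0.14 (50.8% of all genes, median 0.0037), and in tumor 1, 1 of 12, with a median of -0.20 (43.7% of all, median -0.036). In tumor 2, 5 of 12 lay above, with a median of -0.027 (47.2% of all), and in tumor 5, 7 of 12, with a median of 0.081 (56.9% of all). The widest ranges were those of Mta1, a core NuRD subunit, which read 8.54, 9.34, 8.83 and 8.80 in tumors 1, 2, 4 and 5, of Mbd3, the methyl-CpG domain subunit, at 8.02, 8.06, 8.45 and 8.57, and of Mbd2, its methyl-CpG-binding alternative, at 7.00, 7.46, 7.21 and 6.95. Mta1 and Mbd2, like Chd4 1436343_at, read highest in tumor 2, whereas Mbd3 read highest in tumor 5.

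The 11 genes of ISWI complexes, which space nucleosomes, had medians of -0.055, 0.26, -0.11 and 0.034 in tumors 1, 2, 4 and 5 relative to the other 3. Rsf1, a histone-binding partner of the ISWI ATPase, read 7.39, 7.58, 6.94 and 6.79, Chrac1 7.26, 7.03, 7.58 and 7.48, and Cecr2, a bromodomain subunit, 6.39, 6.90, 6.51 and 6.63. The 11 genes of the INO80, SWR1 and TIP60 complexes past the filter, which exchange histone variants or acetylate histones, had medians of -0.083, 0.017, -0.0061 and -0.028. Here Trrap read 7.72, 7.90, 7.61 and 7.31, the ATPase Ep400 7.87, 8.27, 7.75 and 7.71, and the AAA ATPase Ruvbl2 8.75, 8.87, 9.01 and 9.27. Rsf1, Cecr2, Trrap and Ep400 thus read highest in tumor 2, as Chd1 and Chd2 did and as 28.3% of all probe sets did. Ruvbl2 read highest in tumor 5, and Chrac1 read highest in tumor 4 and lowest in tumor 2.

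The 13 other SNF2 family ATPases past the filter had medians of -0.13, 0.14, -0.053 and 0.12 in tumors 1, 2, 4 and 5. Hltf, a DNA translocase of replication fork repair, read 7.71, 7.84, 7.37 and 8.26. Atrx, which deposits histone variants at repeats, read 10.14, 10.45, 9.98 and 9.61, and Shprh, a relative of Hltf, 8.05, 7.90, 7.70 and 7.43. Tumor 5 was lowest for Atrx and Shprh and highest for Hltf.

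The 9 genes linked to Chd7 by binding or regulation had medians of 0.00042, 0.26, -0.011 and -0.13 in tumors 1, 2, 4 and 5. Sox10, an oligodendrocyte lineage factor, ranged most, at 5.67, 6.87, 6.49 and 6.07, with tumor 1 lowest. Sox2, a neural progenitor factor that binds Chd7, read 8.54, 8.60, 8.04 and 8.16, and Arid2, a subunit of the PBAF remodelling complex, 9.60, 9.85, 9.59 and 9.35. Sox2, Arid2 and Top2b of this list, like both Chd7 probe sets, read higher in each of tumors 1 and 2 than in tumors 4 and 5. Genes of the other lists did so too, among them Rsf1, Trrap, Ep400, Atrx and Shprh. How many of all genes share this split was not counted. Tumors 1 and 4 lay close in Arid2, at 9.60 and 9.59, and in Top2b, at 10.19 and 10.16. The array medians over all probe sets past the filter also split so, at 7.65, 7.66, 7.60 and 7.62 in tumors 1, 2, 4 and 5. Their part in the split was not tested. The 5 measured partners of Chd8 had medians of -0.15, -0.064, 0.065 and 0.13. Wdr5, a subunit of histone methyltransferase complexes, read 8.47, 8.59, 8.79 and 8.75, the insulator protein gene Ctcf 9.75, 10.06, 9.88 and 9.75, and Ctnnb1, which encodes beta-catenin, 11.45, 11.49, 11.75 and 11.74. None of these list genes passed the test in a tumor with all 4 arrays, and Sox10 passed in tumor 1 without tumor 5 (limma adjusted p = 0.0208).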

How the data were processed

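Total RNA of 4 tumors was hybridised to 1 array each, and replicate numbers come from the sample titles. The authors deposited log2 values of MAS5, per the submitters' processing notes, which state no version and no scaling target. As linear signals, 100% of them were multiples of 0.1 (tolerance 0.0001). No detection calls were used. Depth does not apply to arrays, whose number limits the precision.

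The 61 Affymetrix control probe sets were left out. The platform annotation gave 24679 probe sets a single symbol, 647 several and 3917 none. Values were used as deposited for levels and raised to the floor for tests, in limma 3.58.1 (R 4.3.3, lmFit and eBayes with an intensity trend), with Benjamini-Hochberg adjustment over all probe sets tested. The fit was tested on simulated data. Promoter windows came from RefSeq, matched by gene identifier. Gene lists, 6 of remodellers and partners and 10 of cell types, and the members were chosen with earlier results of these data known. From each of the 6 lists the 3 genes with the widest range past the filter are named, with any gene that passed, and for Chd7 the 5 genes nearest in pattern. Alternatives covered the floor, the filter on the mean, quantile normalization, centring, 1 probe set per gene, probe sets with the suffix _x_at or _s_at, the trend and each tumor left out. Nothing in the labels says whether the tumors came from separate litters, so p-values measure the spread between these samples.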

Additional observations from a re-analysis of the deposited data

Results flagged for a closer look

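Chd3 1428466_at had 1 tumor far from the rest. It read 5.93 in tumor 5, against 5.58, 5.58 and 5.61 in tumors 1, 2 and 4 (log2). The gap between tumor 5 and its nearest neighbour took up 0.898 of the whole range, above Dixon's 95% critical value for 4 samples. Chance flags about 1 in 20 such groups, and 1 of the 20 Chd probe sets was flagged. The signal lay below the filter on the mean, 5.87, in 3 of 4 tumors, and Chd3 has no other probe set in the table.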

How the results depend on the processing

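The count of Chd probe sets that passed was 0 in every tumor under every alternative run, with another floor or none, no filter on the mean (20 Chd probe sets tested) or one at the 75th percentile (3 tested), quantile normalization, centring, 1 probe set per gene, without the _x_at and _s_at suffixes, without a trend, and 0 to 0 with each tumor left out. The lowest adjusted p of a Chd probe set over these runs was 0.112, for tumor 1 without tumor 2. For each of the 10 probe sets past the filter, the difference in its most distant tumor reversed in 0 of 120 runs. Most of these runs could not reverse it. Another floor, filter, choice of probe sets or trend left the difference itself unchanged. Leaving out another tumor could hardly turn a direction chosen for its distance. Only quantile normalization and centring remained as settings that could readily turn it. Of the counts of Chd probe sets above the mean of the other 3, that in tumor 4 was 4 of 10 under both scalings against 2 of 10 as deposited. The count in tumor 1 was 5 of 10 with quantile normalization and 6 of 10 with centring against 7 of 10. The pairs of probe sets on the same side in all 4 tumors numbered 2 of 4, 4 of 4 with quantile normalization and 2 of 10 with every probe set down to the floor; the cause was not tested. With the filter at the 75th percentile no gene kept a pair. Among the 61 genes of the other lists, the count passing in tumor 1 lay between 0 and 1 with each other tumor left out: Sox10 passed without tumor 5 (adjusted p = 0.0208). No paired analysis was possible because all tumors belong to a single group. Over all probe sets, 118 passed in tumor 1, 45 with the floor at the 50th percentile, 40 with the filter at the 75th, and 308, 131 and 293 without tumor 2, 4 or 5. In tumors 2, 4 and 5 none passed, but 88, 0 and 85 did without tumor 1, and 3, 9 and 10 with no filter on the mean. The number of arrays limits all of these tests, and signals near the floor are noisy on the log scale.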

Other observations

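The widest ranges over the tumors among the 20 Chd probe sets were in probe sets below the floor. Chd8 1457712_at read 3.99, 4.89, 4.11 and 3.81 in tumors 1, 2, 4 and 5, a range of 2.11-fold, Chd9 1458078_at 3.63, 3.94, 3.31 and 2.93, a range of 2.03-fold, and Chd8 1457580_at 2.81, 3.29, 2.81 and 2.29, a range of 2-fold. All 3 probe sets with a range of 2-fold or more lay below the floor in every tumor. Signals below the floor are not told from background, so their folds and the order of their tumors are not read against the brighter probe sets.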
